A study of Mus musculus with 24 samples.

Results

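A set of 10 genes from 4 mitochondrial steps was followed in mouse liver: glycerol phosphate oxidation (Gpd2, Gpd1), the NAD-dependent isocitrate dehydrogenase IDH3 (Idh3a, Idh3b, Idh3g), handling of coenzyme Q (Coq10a, Coq10b) and the phosphorylation switch of pyruvate dehydrogenase (Pdp2, Pdk1, Pdk2). A gene was read from the probe sets that the array annotation gives to its symbol alone, and its brightest probe set stands for it. The 10 genes had 29 probe sets and all 10 were tested, out of 18194 genes with a probe set and 14162 tested. Liver RNA of male mice was measured on 24 arrays, 3 in each of 8 groups that cross 4 TRβ genotypes (TRβ is a thyroid hormone receptor) with T3, the active thyroid hormone, or PBS. WT is wild type, KO lacks TRβ, GS carries the changes E125G and G126S in TRβ, and Y147F carries that change in TRβ. All mice, the PBS groups included, had been made hypothyroid for 3 weeks with an iodine-poor diet and drugs in the drinking water, and livers were taken 6 h after injection. WT, KO and GS mice, of C57BL/6J background and 8 to 9 weeks old, drank 0.02% methimazole, 0.5% perchlorate and 0.3% saccharin, and their T3 dose was 20 µg per 100 g body weight. The Y147F mice, of C57BL/6JCrl background and 10 to 11 weeks old, came in a later submission, drank 0.05% methimazole and 1% perchlorate, and got 200 ng T3 per g, which is the same dose. In any comparison of Y147F with WT, genotype and submission cannot be told apart.

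Thyroid hormone acts on genes through nuclear receptors, of which TRβ is the main form in liver, and it raises the oxygen use of that organ. The glycerol phosphate shuttle moves electrons from NADH made in the cytosol to the respiratory chain: cytosolic Gpd1 makes glycerol 3-phosphate, and Gpd2, on the outer face of the inner mitochondrial membrane, oxidises it and passes the electrons to coenzyme Q. Liver Gpd2 is a classical thyroid hormone target of the rat. IDH3 carries out a rate-limiting oxidation of the citric acid cycle, with Idh3a as its catalytic subunit. Pyruvate dehydrogenase, the gate from pyruvate to acetyl-CoA, is shut by kinases such as Pdk1 and Pdk2 and opened again by phosphatases such as Pdp2.

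The genes were chosen with results of these arrays known. Which comparison picked which gene is not recorded. Gpd2, Idh3a, Coq10a and Pdp2 were treated as chosen by their measured T3 responses and by the differences of KO and GS from WT in these. The other 6 are their relatives in the same steps. T3 responses, and their differences between WT and KO or GS, are therefore given for these genes as a description with no p-value. A gene counts as called in a comparison if its limma p, adjusted by Benjamini and Hochberg over all 14162 genes, was under 0.05. Levels are on the log2 intensity scale, and differences are log2 ± SE between groups of n = 3 arrays. The labels give each array its own number but do not say how animals map to arrays, so p-values measure the spread between these arrays.

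The arrays were alike: medians lay between 5.88 and 5.99 (log2), and the mean correlation within a group ran from 0.9946 to 0.9964. The array that stood furthest from its group was Y147F PBS replicate 3, with a mean r of 0.994 to the other 2 arrays. The Thrb probe set, which reads the gene of TRβ, was no lower in KO, at group means of 6.96 and 6.99, than in WT, at 6.66 and 6.80. Where it lies relative to the deleted part is not known here, so it checks nothing about the KO label. Hepatocyte markers such as Alb were bright on all arrays, with a mean log2 level over the 5 measured of 14.78 to 14.87, and the markers of muscle and fat stayed between 5.27 and 5.83. None of the 35 markers of 8 cell types that were tested was called in any T3 response. The mean of the 6 markers of sinusoidal endothelial cells was 9.26 to 9.40 in WT T3 arrays and 9.59 to 9.70 in WT PBS arrays. Lower with T3 in WT, with no overlap, were also the means of the 4 cholangiocyte markers (6.35 to 6.43 against 6.52 to 6.75), the 5 hepatocyte markers (14.78 to 14.80 against 14.82 to 14.84) and the 2 measured fat cell markers (5.64 to 5.71 against 5.75 to 5.77). In GS the endothelial mean was also lower with T3, at 9.27 to 9.37 against 9.43 to 9.61. The hepatocyte mean in GS was 14.82 to 14.83 with T3 and 14.85 to 14.87 with PBS. In KO the mean of the stellate cell markers was 8.78 to 9.46 with T3 and 9.49 to 9.75 with PBS. In Y147F the T3 and PBS ranges overlapped for every cell type. The part of these markers in the responses below was not tested. In whole liver, fewer cells of a type and less RNA per cell cannot be told apart.

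Gpd2 mRNA was 5.21-fold higher with T3 in WT liver and 1.39-fold higher in KO and in GS, while Gpd1, its cytosolic partner, was level. In WT the PBS arrays read 8.37, 8.41 and 8.78 and the T3 arrays 10.81, 10.93 and 10.96. In KO the PBS arrays read 9.69, 10.12 and 10.08 and the T3 arrays 10.54, 10.38 and 10.40. In GS they read 10.23, 9.67 and 9.87 without T3 and 10.49, 10.24 and 10.47 with it. The T3 arrays lay above the PBS arrays in all of these genotypes, but in KO and GS the PBS arrays already stood well above those of WT. In Y147F, Gpd2 read 9.22, 8.94 and 8.82 with PBS and 10.85, 10.89 and 10.87 with T3, so its groups were well apart, as in WT. T3 minus PBS came to 2.38 ± 0.14 in WT, 0.48 ± 0.14 in KO, 0.48 ± 0.14 in GS and 1.87 ± 0.14 in Y147F, and it was called in WT and Y147F. Gpd1 lay between 11.33 and 11.97 on all 24 arrays. Its T3 differences ran from -0.04 ± 0.12 in WT to 0.19 ± 0.12 in Y147F and none was called.

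Of the IDH3 subunits, only the mRNA of the catalytic Idh3a was called, and the regulatory subunits Idh3b and Idh3g were flat. Idh3a read 9.12, 9.38 and 9.59 in WT PBS arrays and 11.59, 11.59 and 11.53 in WT T3 arrays, a 4.61-fold difference. In KO it read 9.99, 10.23 and 10.09 with PBS and 10.71, 10.55 and 10.46 with T3. In GS it read 10.06, 10.01 and 10.09 with PBS and 10.31, 10.31 and 10.51 with T3. T3 and PBS arrays did not overlap in KO or GS either, yet every T3 array of these genotypes stayed below every WT T3 array. Y147F arrays read 9.66, 9.36 and 9.27 with PBS and 11.50, 11.49 and 11.52 with T3. T3 minus PBS came to 2.21 ± 0.11 in WT and 2.07 ± 0.11 in Y147F, both called, against 0.47 ± 0.11 in KO and 0.33 ± 0.11 in GS, neither called. Idh3b stayed between 12.38 and 12.59 and Idh3g between 11.38 and 11.64 on all arrays. The T3 differences of both subunits lay between -0.08 ± 0.06 and 0.12 ± 0.06 over the 4 genotypes.

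Coq10a and Coq10b encode related proteins of the inner membrane that bind coenzyme Q and, as first worked out for the Coq10 protein of yeast, are needed for its use in respiration. Coq10a was 3.92-fold higher with T3 in WT, 1.63-fold in KO and 1.70-fold in GS. It read 7.76, 8.03 and 7.96 in WT PBS arrays and 10.05, 9.86 and 9.76 in WT T3 arrays. In KO it read 8.58, 8.58 and 8.54 with PBS and 9.36, 9.26 and 9.18 with T3. The GS arrays read nearly the same, 8.51, 8.58 and 8.48 with PBS and 9.35, 9.22 and 9.29 with T3. Coq10a thus moved in all genotypes, with T3 arrays above PBS arrays everywhere. In Y147F it read 7.77, 7.91 and 8.09 with PBS and 9.77, 9.85 and 10.02 with T3. The T3 differences were 1.97 ± 0.09 in WT, 0.70 ± 0.09 in KO, 0.76 ± 0.09 in GS and 1.96 ± 0.09 in Y147F, all called.

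Coq10b was more variable and its T3 difference was smaller. It read 9.76, 10.41 and 10.39 in WT PBS arrays and 11.46, 11.48 and 11.14 in WT T3 arrays. In KO the PBS arrays read 10.74, 10.81 and 10.81 and the T3 arrays 11.12, 11.01 and 10.58, and in GS they read 10.36, 10.58 and 10.68 and 10.54, 10.79 and 10.91. PBS and T3 arrays overlapped in KO and in GS and were apart in WT. Y147F arrays were apart too, at 10.75, 10.79 and 10.33 with PBS and 11.43, 11.37 and 11.71 with T3. The T3 difference of Coq10b was 1.17 ± 0.17 in WT and 0.88 ± 0.17 in Y147F, both called, and 0.11 ± 0.17 in KO and 0.21 ± 0.17 in GS. The lowest Y147F PBS value came from replicate 3, and without that array the Y147F difference was 0.73 ± 0.18 and still called.

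Pdp2, the phosphatase that reactivates pyruvate dehydrogenase, was 3.69-fold higher with T3 in WT, 1.44-fold in KO and 1.54-fold in GS. WT arrays read 7.51, 7.48 and 7.54 with PBS and 9.56, 9.36 and 9.26 with T3. KO arrays read 8.69, 8.69 and 8.51 with PBS and 9.15, 9.16 and 9.16 with T3, and GS arrays 8.58, 8.67 and 8.59 and 9.33, 9.16 and 9.21. The groups were apart in every genotype, and the T3 arrays of KO and GS came close to those of WT. Y147F arrays read 7.85, 7.97 and 8.07 with PBS and 9.52, 9.61 and 9.75 with T3. The T3 difference of Pdp2 was 1.88 ± 0.08 in WT, 0.53 ± 0.08 in KO, 0.62 ± 0.08 in GS and 1.66 ± 0.08 in Y147F, all called. When the fit held just the 6 arrays of a genotype, neither the KO nor the GS difference of Pdp2 was called.

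The kinases that oppose Pdp2 moved little. Pdk2 read 9.71, 9.71 and 9.76 in WT PBS arrays and 10.23, 10.15 and 10.12 in WT T3 arrays. In KO it read 9.40, 9.57 and 9.25 with PBS and 9.73, 9.57 and 9.65 with T3, and in GS 9.73, 9.82 and 9.79 and 9.72, 9.70 and 9.59. In GS the T3 arrays were thus the lower ones. The T3 difference of Pdk2 was 0.44 ± 0.08 in WT and 0.33 ± 0.08 in Y147F, both called, 0.24 ± 0.08 in KO and -0.11 ± 0.08 in GS. In Y147F the Pdk2 arrays read 9.83, 9.84 and 9.96 with PBS and 10.04, 10.19 and 10.37 with T3, and the call was lost without T3 replicate 3, at 0.24. Pdk1 was among the bright genes, between 11.47 and 12.16 on all arrays. Its T3 difference was -0.14 ± 0.10 in WT, 0.17 ± 0.10 in KO, 0.03 ± 0.10 in GS and -0.36 ± 0.10 in Y147F, where alone it was called. In Y147F, Pdk1 read 12.16, 11.87 and 11.96 with PBS and 11.47, 11.73 and 11.71 with T3, and the call was lost without PBS replicate 1, at -0.28, or T3 replicate 1, at -0.28. When the fit held just the Y147F arrays, neither the Pdk1 nor the Pdk2 difference was called.

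**Figure D1:**
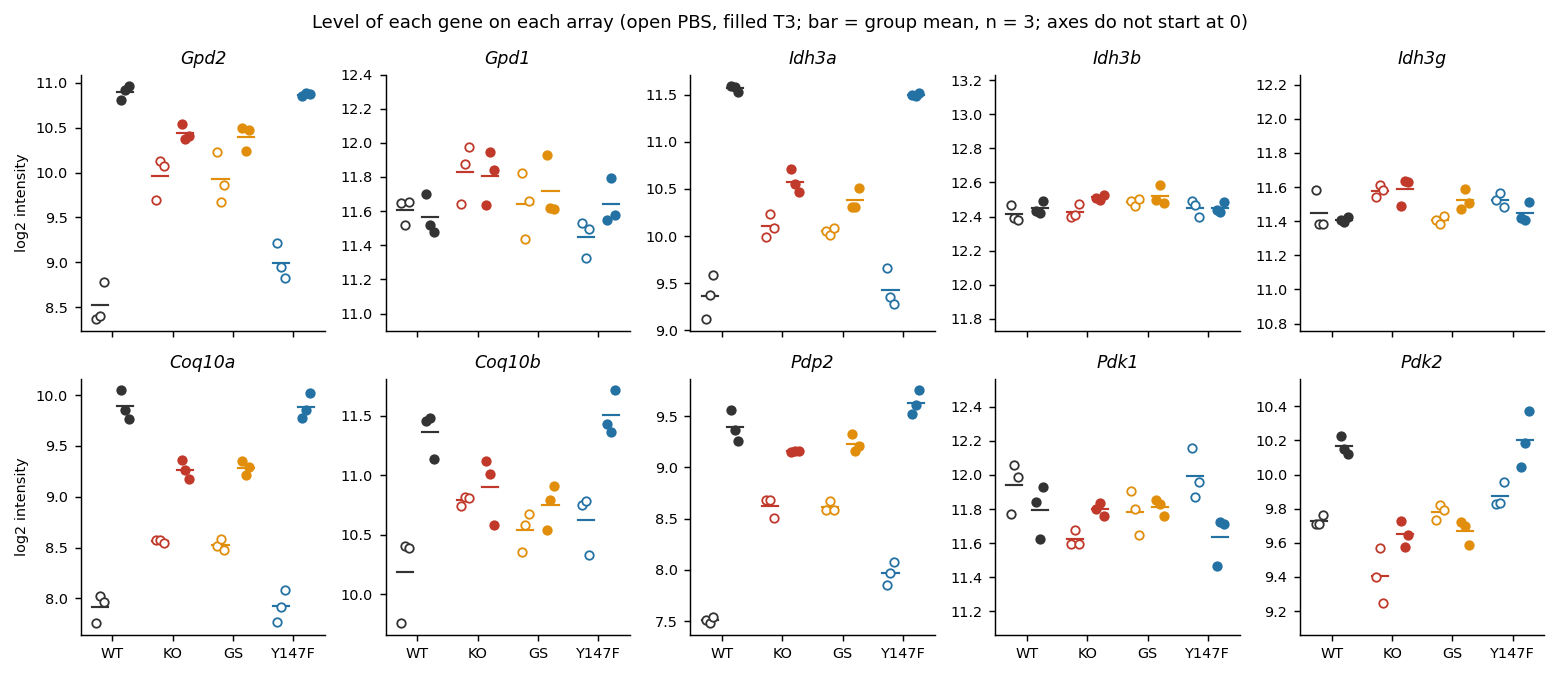
Log2 intensity of the brightest probe set of each gene on each of 24 arrays (open points PBS, filled points T3, bars group means of 3 arrays), by genotype, with axes that do not start at 0. Gpd2, Idh3a, Coq10a and Pdp2 show low PBS points in WT and Y147F and higher PBS points in KO and GS, while Gpd1, Idh3b and Idh3g are flat.

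In all, 6 of the 10 genes were called in the T3 response in WT, 2 in KO, 2 in GS and 7 in Y147F. Over all tested genes the share called was 10.6% in WT, 0.177% in KO, 0.148% in GS and 11.6% in Y147F. Since these responses were treated as used in the choice of genes, nothing is read from the counts. By size of the rise in WT, Gpd2 ranked 8, Idh3a 12, Coq10a 20, Pdp2 26 and Coq10b 92 among the 14162 genes. The median T3 difference over the 10 genes was 0.80 in WT, 0.21 in KO, 0.16 in GS and 0.60 in Y147F.

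**Figure D2:**
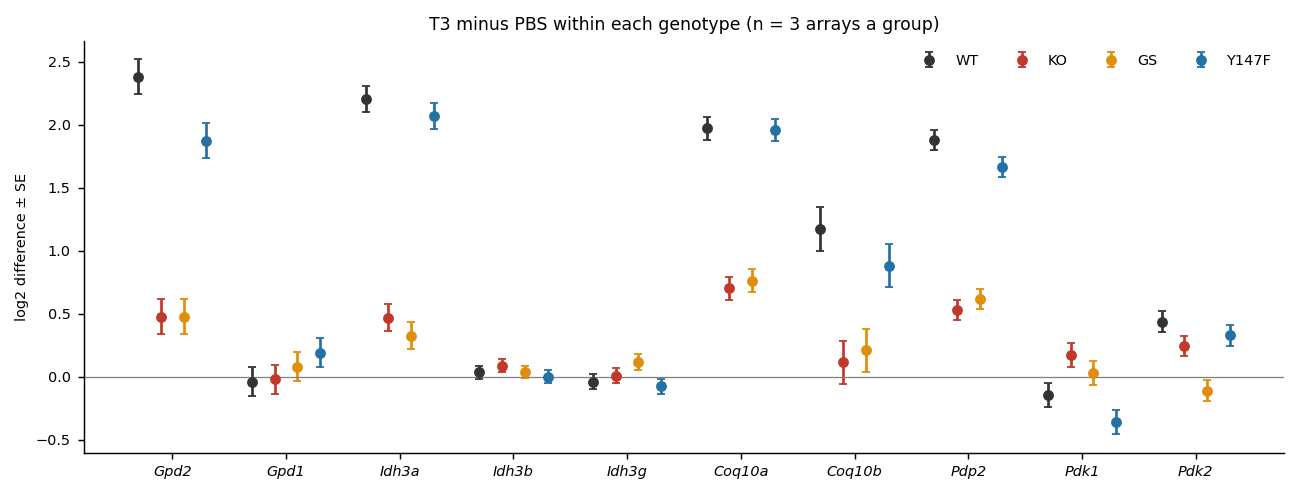
T3 minus PBS as a log2 difference with its SE for each gene in WT, KO, GS and Y147F (n = 3 arrays per group). WT and Y147F points lie between 1.66 and 2.38 for Gpd2, Idh3a, Coq10a and Pdp2, and KO and GS points of these genes between 0.33 and 0.76. Gpd2 lies at 2.38 in WT and 1.87 in Y147F.

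The response was smaller in KO than in WT, with log2 differences of -1.90 ± 0.20 for Gpd2, -1.74 ± 0.15 for Idh3a, -1.35 ± 0.11 for Pdp2, -1.27 ± 0.13 for Coq10a and -1.06 ± 0.24 for Coq10b. In GS the differences from WT were -1.90 ± 0.20 for Gpd2, -1.88 ± 0.15 for Idh3a, -1.26 ± 0.11 for Pdp2, -1.21 ± 0.13 for Coq10a, -0.96 ± 0.24 for Coq10b and -0.55 ± 0.12 for Pdk2. These 5 and 6 differences were called, against a share of 3.09% and 2.92% of all genes, and they too were treated as used in the choice. The Coq10b call in GS was lost in 7 of 12 fits that left out 1 array, where its difference lay between -1.08 and -0.75, and that in KO was lost without KO T3 replicate 3. As a share of the WT log2 response, KO kept 20.0% for Gpd2, 21.3% for Idh3a, 28.2% for Pdp2, 35.5% for Coq10a and 9.80% for Coq10b. GS kept 20.0%, 14.8%, 32.9%, 38.6% and 17.8% of it for the same genes in that order. Coq10a and Pdp2 kept the largest shares among these 5. The shares are built from responses treated as used in the choice of genes, so they are a description.

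KO and GS were also compared directly. This comparison is built from the same arrays as the T3 responses in KO and GS, so its p-values are not independent of the choice of genes. None of the 10 genes differed in its T3 response between GS and KO, where limma called 0% of all genes and 809 genes had an unadjusted p under 0.05, Pdk2 among them. For Gpd2 the GS minus KO response difference was 0.00, with a 95% interval from -0.41 to 0.41 and an adjusted p of 1.00. For Idh3a the interval ran from -0.45 to 0.17, for Coq10a from -0.21 to 0.33 and for Pdp2 from -0.15 to 0.32, with adjusted p-values of 0.977, 0.996 and 0.982. Pdk2 had the widest gap at -0.35 ± 0.12 (adjusted p = 0.730). A p above the threshold does not show that GS and KO respond alike, and the intervals give the sizes that these arrays leave possible.

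Without T3, Gpd2, Idh3a, Coq10a and Pdp2 stood higher in KO and GS than in WT. Coq10b stood higher in KO, and Pdk2 was lower in KO. The PBS arrays compared are those of the T3 responses in WT, KO and GS, so the p-values are not independent of the choice of genes. Among PBS mice, Gpd2 was 2.72-fold higher in KO than in WT (1.45 ± 0.14, adjusted p = 2.70e-06) and 2.65-fold higher in GS (1.41 ± 0.14, adjusted p = 5.11e-06). Pdp2 was 2.17-fold higher in KO (1.11 ± 0.08, adjusted p = 5.11e-08) and 2.14-fold higher in GS (1.10 ± 0.08, adjusted p = 6.48e-08). Both genes had no overlap between the 3 mutant and the 3 WT arrays, and the same held for Idh3a and Coq10a, and for Coq10b in KO. Idh3a was 1.67-fold higher in KO (0.74 ± 0.11, adjusted p = 0.000233) and 1.61-fold in GS (0.69 ± 0.11, adjusted p = 0.000576). Coq10a was 1.57-fold higher in KO (0.65 ± 0.09, adjusted p = 0.000192) and 1.52-fold in GS (0.61 ± 0.09, adjusted p = 0.000484). Coq10b was higher in KO (0.60 ± 0.17, adjusted p = 0.0363) but not called in GS (0.35 ± 0.17, adjusted p = 0.361). The low WT PBS replicate 1 of Coq10b weighs on this: without it the KO difference was 0.39 with an adjusted p of 0.198.

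The kinases went the other way in KO. Pdk2 was lower in KO than in WT without T3 (-0.32 ± 0.08, adjusted p = 0.0197), a call lost in 4 of 6 fits that left out 1 array, and Pdk1 was lower (-0.32 ± 0.10, adjusted p = 0.0493), a call lost in 5 of 6. In GS neither differed, at 0.05 ± 0.08 for Pdk2 and -0.16 ± 0.10 for Pdk1, with adjusted p-values of 0.862 and 0.518. The direct difference of Pdk2 between GS and KO was 0.37 ± 0.08 with an adjusted p of 0.0692, and it was called with array weights (adjusted p = 0.0377) and without KO PBS replicate 2 (0.46, adjusted p = 0.0471). Gpd1, Idh3b and Idh3g differed in neither genotype, with adjusted p-values from 0.243 to 0.944.

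In numbers, 7 of the 10 genes were called between KO and WT among PBS mice, 5 higher and 2 lower, against 6.87% of all genes. That count was below 7 in every fit that left out 1 array, and it was 4 without KO PBS replicate 1 or without KO PBS replicate 3. Between GS and WT 4 were called, all higher, against 2.95%. Between GS and KO none was called, against 0.0847% or 12 of all genes in limma, with 2 of the 10 genes, Pdk2 and Idh3g, at an unadjusted p under 0.05. These comparisons reuse the PBS arrays of the T3 responses, and a gene chosen for a strong rise in WT is one with low WT PBS values. Of the 35 cell type markers, 1 of the 7 Kupffer cell markers was called between KO and WT, and the mean of those 7 was 9.33 to 9.49 in KO PBS arrays and 9.09 to 9.33 in WT PBS arrays. The mean of the 6 sinusoidal endothelial markers was 9.41 to 9.53 in KO PBS arrays, below the 9.59 to 9.70 of WT PBS arrays. Between GS and WT no marker was called among PBS mice, and the mean of the 5 hepatocyte markers was 14.85 to 14.87 in GS PBS arrays and 14.82 to 14.84 in WT PBS arrays. The part of these markers in the results was not tested.

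**Figure D3:**
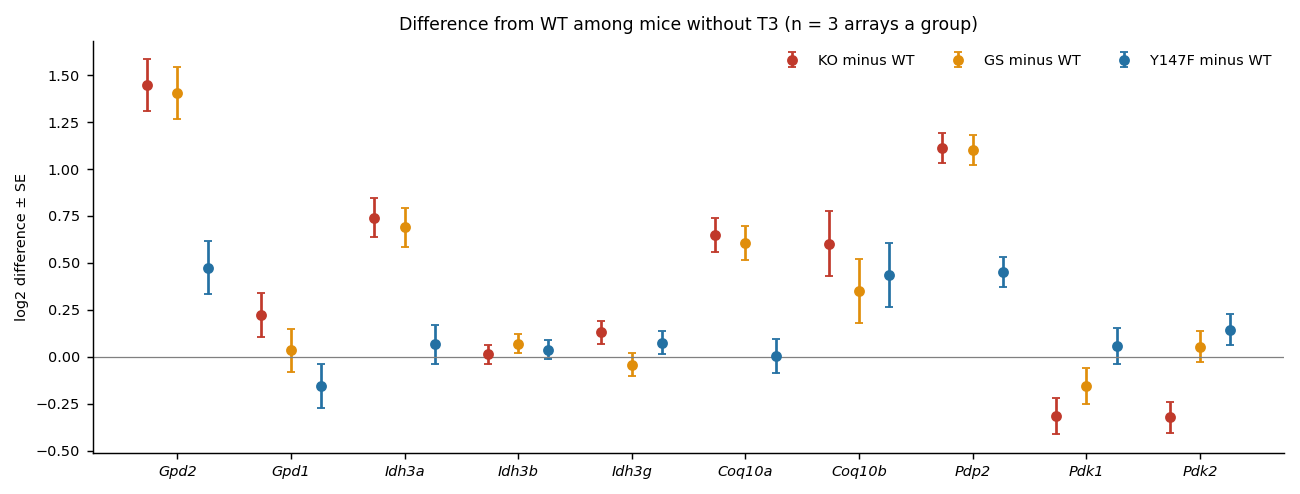
Log2 difference from WT among PBS mice with its SE for each gene in KO, GS and Y147F (n = 3 arrays per group). Gpd2 and Pdp2 lie between 1.10 and 1.45 in KO and GS, Idh3a and Coq10a between 0.61 and 0.74, and Gpd1, Idh3b and Idh3g between -0.16 and 0.22 in all 3 genotypes.

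After T3, the order was turned for some genes and closed for others. These comparisons reuse the T3 arrays of the responses, and a gene chosen for a strong rise in WT is one with high WT T3 values. Idh3a was lower with T3 in KO than in WT (-0.99 ± 0.11, adjusted p = 4.49e-06) and in GS than in WT (-1.19 ± 0.11, adjusted p = 6.71e-07). Coq10a stood at -0.62 ± 0.09 from WT in KO (adjusted p = 0.000177) and at -0.60 ± 0.09 in GS (adjusted p = 0.000300), calls that were lost when its dim probe sets were averaged in. Pdk2 was lower in both, with differences of -0.51 ± 0.08 in KO and -0.49 ± 0.08 in GS (adjusted p = 0.000454 and 0.000842). For these 3 genes, and for Gpd2 and Coq10b, no T3 array of KO or GS reached the lowest WT T3 array. Gpd2 was lower too, at -0.46 ± 0.14 in KO (adjusted p = 0.0496), and at -0.50 ± 0.14 when GS was set against WT (adjusted p = 0.0392), and both calls were lost in all 6 fits that left out 1 array. Coq10b was called lower in GS (-0.61 ± 0.17, adjusted p = 0.0403), a call lost in 5 of 6 such fits, and not in KO (-0.45 ± 0.17, adjusted p = 0.123).

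Pdp2 ended near the WT level. Compared with WT, KO T3 arrays were at -0.24 ± 0.08 (adjusted p = 0.0778) and GS T3 arrays at -0.16 ± 0.08 (adjusted p = 0.280), and the KO difference was called with array weights (adjusted p = 0.0428). The smaller T3 response of Pdp2 in KO and GS therefore lay mostly in its PBS arrays, 1.11 and 1.10 above WT, and less in its T3 arrays. For Idh3a the 2 ends contributed more evenly, with PBS arrays 0.74 and 0.69 above WT and T3 arrays -0.99 and -1.19 from it. Among T3 mice, 4 genes were called between KO and WT and 5 between GS and WT, all lower, against 6.93% and 5.59% of all genes. The GS count was below 5 in every fit that left out 1 array. It was 3 without WT T3 replicate 1, WT T3 replicate 2 or any 1 of the GS T3 replicates. Idh3g, not called, went the other way, at 0.18 ± 0.06 in KO against WT (adjusted p = 0.0866) with no overlap of arrays. With array weights that difference was called (adjusted p = 0.0292). Between GS and KO none of the 10 was called, none at an unadjusted p under 0.05 either, against 0.106% of all genes in limma, which is 15. The hepatocyte markers gave 1 call between KO and WT among T3 mice and the Kupffer cell markers 1 between GS and WT. The 7 Kupffer cell markers had a mean of 9.14 to 9.96 in GS T3 arrays and 8.89 to 9.24 in WT T3 arrays. The 4 cholangiocyte markers were higher in GS T3 arrays (6.52 to 6.65) than in WT T3 arrays (6.35 to 6.43). The 5 hepatocyte markers were higher in KO and GS T3 arrays, at 14.82 to 14.85 and 14.82 to 14.83, than in WT T3 arrays, at 14.78 to 14.80. In KO T3 arrays the 2 fat cell markers were lower, at 5.61 to 5.64, than in WT T3 arrays, at 5.64 to 5.71. The part of these markers in the differences was not tested.

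Few of these measures were called between Y147F and WT, which does not show that these genotypes are alike. No response difference between Y147F and WT was called among the 10 genes, and limma called 0% of all genes, with 756 genes at an unadjusted p under 0.05, Gpd2 among them. For Gpd2 the difference was -0.51 ± 0.20, with an interval from -0.91 to -0.10 and an adjusted p of 0.897. For Coq10a it was -0.01 ± 0.13 (interval -0.28 to 0.25, adjusted p = 1.00) and for Idh3a -0.13 ± 0.15 (interval -0.45 to 0.18, adjusted p = 0.969). Pdp2 had -0.22 ± 0.11 (interval -0.45 to 0.02, adjusted p = 0.922). Among PBS mice only Pdp2 was called, 1.37-fold higher in Y147F (0.45 ± 0.08, adjusted p = 0.0421), against 0.0847% of all genes. That call was lost in 5 of 6 fits that left out 1 array, among them the one without Y147F PBS replicate 3 (0.40, adjusted p = 0.106). Gpd2 was 0.48 ± 0.14 higher (adjusted p = 0.168), and its PBS arrays did not overlap those of WT. Among T3 mice none of the 10 genes was called against 0.00706% of all genes, which is 1, and Pdp2 alone had an unadjusted p under 0.05 (0.23 ± 0.08, adjusted p = 0.424). None of the 35 cell type markers was called either. The endothelial mean was 9.43 to 9.63 in Y147F T3 arrays and 9.26 to 9.40 in WT T3 arrays. The cholangiocyte mean was 6.431 to 6.722 against 6.348 to 6.428, and the muscle mean 5.27 to 5.40 against 5.42 to 5.66. The part of these markers in the comparison with Y147F was not tested.

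Genes with several probe sets gave a check within the array. The other 2 probe sets of Gpd2 above the filter on dim probe sets gave T3 differences of 2.60 ± 0.16 and 2.29 ± 0.15 in WT, 0.63 ± 0.16 and 0.55 ± 0.15 in KO, and 0.74 ± 0.16 and 0.48 ± 0.15 in GS. The second probe set of Coq10b gave 1.31 ± 0.18 in WT and 0.16 ± 0.18 in KO. The probe sets of Gpd2 and Coq10b thus gave like values in these genotypes. For Idh3a, 2 further probe sets gave 1.95 ± 0.08 and 1.55 ± 0.12 in WT, but the fourth gave 0.25 ± 0.09 in WT and 0.38 ± 0.09 in Y147F. Among PBS mice the fourth differed from WT by 0.08 ± 0.09 in KO and 0.03 ± 0.09 in GS, against 0.74 and 0.72, and 0.37 and 0.45, for the 2 further ones. One probe set of Idh3b gave T3 differences of 0.31 ± 0.12 in KO and -0.04 ± 0.12 in WT, and another 0.13 ± 0.07 and 0.06 ± 0.07. Pdk1 probe sets disagreed in WT, from -0.47 ± 0.16 to 0.06 ± 0.11, and agreed on a lower level in Y147F, from -0.47 ± 0.11 to -0.33 ± 0.11. The other 3 probe sets of Coq10a, at 3.73 to 5.09 on all arrays, were below the filter, as were 1 of Gpd2 and 1 of Gpd1. With the mean of all its probe sets in place of the brightest, Coq10a lost its calls in KO and GS and its PBS differences from WT fell to 0.22 (adjusted p = 0.0788) in KO and 0.18 (adjusted p = 0.241) in GS. Among T3 mice its difference from WT was then -0.21 for KO and -0.12 for GS (adjusted p = 0.0731 and 0.389), and its response difference between GS and WT was -0.30 and no longer called.

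**Figure D4:**
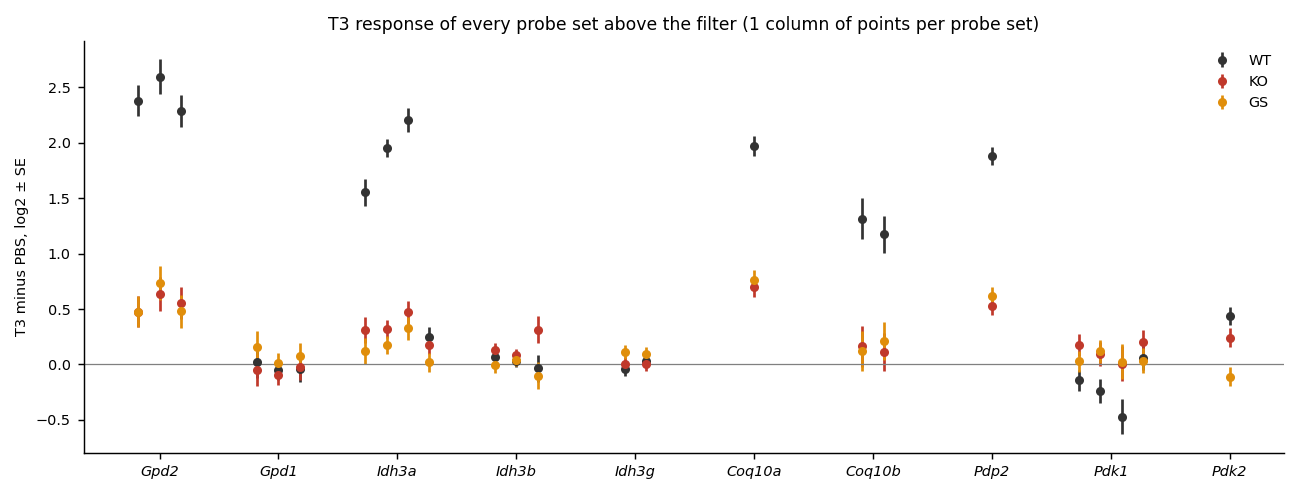
T3 minus PBS as a log2 difference with its SE for each probe set above the filter, 1 column of points per probe set, in WT, KO and GS (n = 3 arrays per group). The 3 columns of Gpd2 agree, while 1 of the 4 columns of Idh3a stays near 0.25 in WT.

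Over the 24 arrays the 4 responding genes ran closely together, as genes with the same group pattern must. As a description, Pearson's r was 0.962 between Gpd2 and Pdp2, 0.960 between Idh3a and Coq10a, 0.958 between Coq10a and Pdp2 and 0.922 between Gpd2 and Idh3a. The array pattern of Gpd2 was most like those of Uck1 (r = 0.961), Trp53inp2 (0.957) and Mmd (0.956). That of Idh3a was most like Ankrd33b (0.977), Uck1 (0.972) and Trim7 (0.970), and that of Coq10a most like Dexi (0.974), Uck1 (0.968) and Slc25a45 (0.965). For Pdp2 they were Mmd (0.962), Trp53inp2 (0.949) and Dexi (0.949). These correlations are over arrays of 8 groups, so they mainly follow the group means.

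Since these genes moved together, their promoters were read for the motif bound by thyroid hormone receptors. RefSeq (GRCm38.p6) gave 12 promoter windows of 300 bases, from 250 before to 50 after a start site, for 8 of the 10 genes, all but Gpd1 and Idh3a. The search used AGGTCA without mismatch on either strand, and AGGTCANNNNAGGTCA, the same motif repeated in the same direction 4 bases on, with up to 2 mismatches. Of 32851 promoters of this length in the table, 16.26% held the single motif and 3.02% the repeat. Among the 12 windows the repeat was not found and the single motif was found in 2, those of Coq10a and Idh3g, the latter downstream of its start. The 250 bases before the start are shown for 3 genes that were higher with T3, since Gpd2 and Coq10a have 2 start sites each, read 5′ to 3′ on the strand of the gene, with the motif in capitals (TGACCT is AGGTCA on the other strand).
Gpd2 first start, chr2:57237428-57237677, plus strand: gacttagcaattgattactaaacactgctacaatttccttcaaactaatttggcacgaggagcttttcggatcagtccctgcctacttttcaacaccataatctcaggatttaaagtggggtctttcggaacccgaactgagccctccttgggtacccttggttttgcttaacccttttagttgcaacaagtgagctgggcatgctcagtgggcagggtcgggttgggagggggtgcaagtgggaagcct
Gpd2 second start, chr2:57238132-57238381, plus strand: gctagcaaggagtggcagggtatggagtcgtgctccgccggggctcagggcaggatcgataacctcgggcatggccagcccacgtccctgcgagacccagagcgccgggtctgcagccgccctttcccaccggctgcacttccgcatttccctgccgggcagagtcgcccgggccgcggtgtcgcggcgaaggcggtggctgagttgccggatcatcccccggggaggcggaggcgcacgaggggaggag
Coq10a first start, chr10:128370038-128370287, minus strand: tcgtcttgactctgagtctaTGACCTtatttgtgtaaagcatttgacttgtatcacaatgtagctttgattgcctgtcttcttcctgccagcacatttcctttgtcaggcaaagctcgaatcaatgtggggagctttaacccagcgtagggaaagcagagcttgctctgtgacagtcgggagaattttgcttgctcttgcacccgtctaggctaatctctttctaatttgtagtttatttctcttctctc
Coq10a second start, chr10:128368981-128369230, minus strand: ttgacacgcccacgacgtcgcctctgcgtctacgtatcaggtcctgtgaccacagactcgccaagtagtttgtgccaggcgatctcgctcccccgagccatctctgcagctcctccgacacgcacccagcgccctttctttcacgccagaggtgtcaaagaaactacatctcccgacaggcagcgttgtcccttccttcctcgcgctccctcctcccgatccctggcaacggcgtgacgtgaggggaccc
Pdp2, chr8:104591222-104591471, plus strand: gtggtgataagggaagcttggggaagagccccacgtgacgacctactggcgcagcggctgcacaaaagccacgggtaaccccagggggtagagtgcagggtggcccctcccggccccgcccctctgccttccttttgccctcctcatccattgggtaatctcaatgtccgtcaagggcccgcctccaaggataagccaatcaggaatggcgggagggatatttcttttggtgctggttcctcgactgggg
In Coq10a the match begins 230 bases before the first start. GC content of the full windows was 53.0% and 72.7% for the starts of Gpd2, 42.3% and 63.3% for those of Coq10a and 60.7% for Pdp2. A match or its absence in these windows is a description of letters and says nothing of where the receptor binds.

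The other genes of these pathways were followed in lists of 61 genes, of which 57 had a probe set and were tested. In WT 7 of the 57 were called higher with T3 and 3 lower, in Y147F 6 higher and 3 lower, and in KO and GS none. The shares called over all genes, 10.6% in WT, 11.6% in Y147F, 0.177% in KO and 0.148% in GS, are the background for these counts, and none of 57 in KO and GS does not stand apart from it. The response differed from WT in 4 of them in KO, 1 higher and 3 lower, and in 5 in GS, 1 higher and 4 lower, beside 3.09% and 2.92% of all genes. Without WT T3 replicate 3, or without KO PBS replicate 1, the KO count was 2. The median T3 difference of the 57 was 0.05 in WT, 0.10 in KO, 0.02 in GS and 0.05 in Y147F, beside -0.03, -0.01, 0.00 and -0.01 over all genes. In KO 1468 of all genes and in GS 992 had an unadjusted p under 0.05 in limma, so the absence of listed genes concerns the adjusted threshold. The members of each list that moved were few, and each is named here with what it does.

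Enzymes that, like Gpd2, deliver electrons to coenzyme Q moved in both directions. Prodh, proline dehydrogenase, was higher with T3 in WT (1.54 ± 0.13, adjusted p = 6.69e-08) and Y147F (1.25 ± 0.13, adjusted p = 1.55e-06). Its T3 difference was 0.46 ± 0.13 in KO and -0.04 ± 0.13 in GS (adjusted p = 0.206 and 0.983). The Prodh response was smaller than in WT, with differences of -1.08 ± 0.19 in KO and -1.58 ± 0.19 in GS (adjusted p = 0.00173 and 2.17e-05). Chdh, choline dehydrogenase, fell in WT (-0.63 ± 0.08, adjusted p = 7.86e-06) and Y147F (-0.60 ± 0.08, adjusted p = 2.08e-05), and WT fell further than KO, by 0.41 ± 0.11 (adjusted p = 0.0475), and than GS, by 0.62 ± 0.11 (adjusted p = 0.00195). The other 5 tested genes of that list were not called in these responses. None of the 10 tested genes of coenzyme Q synthesis was called in any T3 response, with list medians of 0.03 in WT and 0.06 in Y147F.

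In the citric acid cycle list, 2 of 14 genes were called in WT. Cs, citrate synthase, rose in WT (0.77 ± 0.10, adjusted p = 1.02e-05) and Y147F (0.77 ± 0.10, adjusted p = 1.40e-05), and its response was smaller in GS than in WT (-0.68 ± 0.14, adjusted p = 0.00649), with -0.44 ± 0.14 for KO against WT (adjusted p = 0.102). Sucla2, a subunit of succinyl-CoA synthetase, rose by 0.26 ± 0.06 in WT (adjusted p = 0.0104). Idh2, the NADP-dependent isocitrate dehydrogenase of mitochondria, fell in Y147F (-0.35 ± 0.11, adjusted p = 0.0473, with 1 array missing) and was -0.30 ± 0.10 in WT (adjusted p = 0.0575). Idh3a thus had the opposite sign to Idh2.

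Of 10 tested genes of pyruvate dehydrogenase and pyruvate entry, Pdhb was the one called. Pdhb, the beta subunit of the first enzyme of the complex, rose in WT (1.15 ± 0.10, adjusted p = 1.05e-07) and Y147F (1.00 ± 0.10, adjusted p = 9.04e-07). Its response was smaller than in WT, at -1.04 ± 0.15 in KO (adjusted p = 0.000193) and at -0.98 ± 0.15 when GS was set against WT (adjusted p = 0.000299). The other kinases and phosphatase of the complex were not called in any genotype: in WT the T3 difference was -0.24 ± 0.11 for Pdk3 (adjusted p = 0.200), 0.17 ± 0.20 for Pdk4 (adjusted p = 0.682) and -0.22 ± 0.11 for Pdp1 (adjusted p = 0.235). Pdp2 and Pdk2 were thus the ones called in WT among these regulators.

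Among 8 tested genes of the other NADH shuttles, none was called higher. Slc25a13, the aspartate-glutamate carrier of liver, fell in WT (-0.26 ± 0.06, adjusted p = 0.00483) and in Y147F (-0.36 ± 0.06, adjusted p = 0.000769, with 1 array missing). Gpd1l, a relative of Gpd1, fell in WT (-0.43 ± 0.12, adjusted p = 0.0212). Of 10 genes that control mitochondrial gene expression, 3 were called in WT, all higher. Ppargc1b, a coactivator of nuclear receptors, rose by 1.07 ± 0.13 in WT (adjusted p = 9.36e-06) and 0.99 ± 0.13 in Y147F (adjusted p = 3.03e-05), and its response was smaller than in WT, with differences of -0.81 ± 0.19 in KO and -0.82 ± 0.19 in GS (adjusted p = 0.0189 and 0.0185). Tfb2m, a mitochondrial transcription factor, rose by 0.42 ± 0.09 (adjusted p = 0.00391) and Esrra, an orphan nuclear receptor, by 0.31 ± 0.08 (adjusted p = 0.00807) in WT. In Y147F, Polrmt, the mitochondrial RNA polymerase, rose by 0.24 ± 0.06 (adjusted p = 0.00732), and Ppargc1a, named after its value was seen, by 0.51 ± 0.14 (adjusted p = 0.0225).

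**Figure D5:**
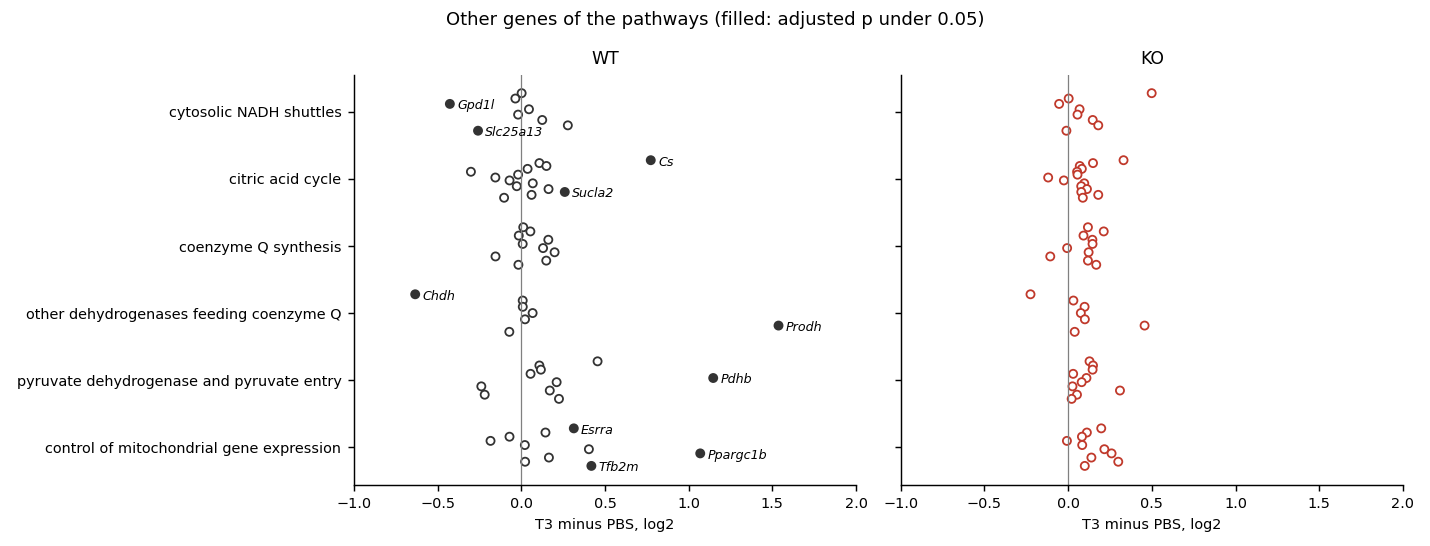
T3 minus PBS as a log2 difference for each of the 57 other pathway genes, by list, in WT (left) and KO (right), with filled and named points where the adjusted p was under 0.05. In WT, Prodh, Pdhb, Ppargc1b and Cs stand furthest to the right at 0.77 to 1.54, and no point is filled in KO.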

How the data were processed

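Per the submitters' processing notes, the arrays were summarised with RMA, with no version given in the sources used here, and the 18 first-submitted columns were deposited as log2 intensities. In the 6 later columns, which hold the same kind of values as deposited by the authors but had lost nearly every decimal mark, the mark was put back so that each value lay between 3 and 16 (log2). Of these cells 775, or 0.286%, could also have been day numbers of a spreadsheet and were set missing, none of them in the 10 genes. A probe table gave 34958 of 45101 probe sets 1 symbol, 932 several and 9211 none, and each gene was read from its probe set with the highest mean. Genes that reached the 40th percentile of the array on at least 3 arrays were tested.

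The 24 arrays were fitted together in limma 3.58.1 (R 4.3.3) with a mean for each of the 8 groups. The moderated statistics had 16 residual degrees of freedom and 4.28 from the prior, with two-sided tests and Benjamini-Hochberg adjustment over 14162 genes. The steps were tested on simulated data. Alternatives were other normalisation, filters, probe set choice, moderation, array weights, a covariate, subsets of arrays, and leaving out each array. Named were all 10 genes, per pathway list up to 3 called genes with the smallest p in WT and up to 2 in the other T3 comparisons, Pdk3, Pdk4 and Pdp1, and the 3 genes most correlated with Gpd2, Idh3a, Coq10a and Pdp2. The genes, lists and tests were chosen with earlier results of these data known. The number of arrays limits the precision.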

Additional observations from a re-analysis of the deposited data

Results flagged for a closer look

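Of the 10 genes, 6 had a T3 response that differed from WT in KO or GS by the interaction term of the limma model. That difference was treated as used in the choice of these genes, so the values are a description and carry no p-value. Relative to WT, the log2 response in KO differed by -1.90 for Gpd2, -1.74 for Idh3a, -1.27 for Coq10a, -1.06 for Coq10b and -1.35 for Pdp2. In GS it differed by -1.90 for Gpd2, -1.88 for Idh3a, -1.21 for Coq10a, -0.96 for Coq10b, -1.26 for Pdp2 and -0.55 for Pdk2. In 4 of these genes, Gpd2, Idh3a, Coq10a and Pdp2, part of the difference lay in higher PBS levels in KO and GS, from 0.61 to 1.45.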

How the results depend on the processing

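Each of the 160 values (10 genes in 16 comparisons) was recomputed under 33 alternatives, of which 24 left out 1 array, and no value reversed its direction while called. Of 49 calls, 29 held in every alternative that could be run for them. These calls include T3 responses and response differences that were treated as used in the choice of genes. The alternatives also reuse the same arrays, so these counts are a description. When the fit held just the arrays of the groups compared, the count of called genes was 1 in the T3 response in KO, 1 in that in GS, 4 for KO against WT among PBS mice and 0 for Y147F against WT among PBS mice. Averaging a gene's probe sets, the count was 1 in the T3 response in GS and 4 for KO against WT among PBS mice. With array weights it was 1 for GS against KO among PBS mice and 7 for KO against WT among T3 mice, of which Idh3g was higher. With a covariate for the title number that count was 0 for Y147F against WT among PBS mice, and the Pdk1 call in the Y147F response was lost. The covariate marks arrays with a title number above 100000. All KO and all Y147F PBS arrays have one, but only WT PBS replicate 1 among WT arrays, so it runs partly with genotype and treatment. Leaving out 1 array gave 4 to 6 calls for KO against WT, 0 to 1 for GS against KO and 0 to 1 for Y147F against WT among PBS mice, and 3 to 4 for GS against WT among T3 mice. For the pathway lists, the response difference between KO and WT gave 2 to 4 calls. The causes were not tested. Dim probe sets, such as 3 of Coq10a, limit what the array can show for them. No paired analysis was possible because the replicate numbers were given in accession order and the labels pair no animals across groups.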
